A study of Arabidopsis thaliana with 3 samples.

Results

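BDH1 is a plant BCL-domain homolog protein that the series title connects to SWI/SNF, a family of complexes that move or evict nucleosomes. The 9 genes described here set and erase DNA methylation in Arabidopsis thaliana. They are MET1, CMT3, CMT2, DRM2, ROS1, DME, DML2, DML3 and KYP, chosen by locus identifier out of 27444 protein-coding genes on chromosomes 1 to 5, each with 500 bp added on both sides of its annotated span. All 9 identifiers were found in the RefSeq gene table, where ROS1 has the symbol DML1 and KYP the symbol SUVH4. BDH1-FLAG was mapped by chromatin immunoprecipitation with sequencing (ChIP-seq) using an antibody against FLAG, a short peptide tag. The material was inflorescences, the flowering shoots, of plants grown in soil under long days. Both replicates had the genotype bdh1-1 BDH1-FLAG, a bdh1-1 mutant that carries the tagged protein. The promoter of the transgene, the number of lines and the age of the plants are not given in the labels, and neither is whether the replicates came from separate plants. The third sample was wild type without a tag, and its values were not analysed here.

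Methylated cytosine in plants occurs in CG, CHG and CHH contexts, where H is any base but G, and silences transposons and some genes. MET1 copies CG methylation after replication, CMT3 maintains CHG methylation in a loop with the histone H3K9 methyltransferase KYP, CMT2 methylates cytosines outside CG in heterochromatin, and DRM2 methylates new sites guided by small RNAs. ROS1, DME, DML2 and DML3 are DNA glycosylases that cut methylated cytosine out of DNA, and DME is known for its action in the central cell of the female gametophyte.

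Each replicate had its own list of peaks, 16653 in replicate 1 and 16413 in replicate 2. A listed peak comes with the authors' fold enrichment, a ratio over a background that is not stated, and the −log10 of a q-value. The median fold enrichment was 2.25 in replicate 1 and 2.23 in replicate 2, with upper quartiles of 2.62 and 2.58. The read depth of the lists is unknown, so a gene without a peak had none at the authors' threshold, which is not the same as no BDH1. The lowest −log10 q listed was 1.32 in replicate 1 and 1.31 in replicate 2. A peak list holds no expression values, so the tissue could not be checked against marker genes. The gene table gives no strand, so the ends of a gene are called lower and higher by coordinate, and whether an end is the start of transcription is not stated. No second group had a list, so no test between groups was made, and the members are described beside all protein-coding genes.

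Of the 9 genes, 5 had a peak in both lists within the gene or its 500 bp flanks, namely MET1, CMT2, ROS1, DME and DML2. DRM2 had a peak in replicate 2 alone, and CMT3, DML3 and KYP had none in either list. By the same rule, both lists held a peak for 52.1% of all protein-coding genes, a single list for 7.61% and neither for 40.3%, so 5 of 9 (55.6%) is near the background. Without the flanks 4 of the 9 genes had a peak in both lists, against 45.4% of all, and with flanks of 1000 bp 6 did, against 57.1%. By role, a peak in both lists was found at 2 of the 4 DNA methyltransferase genes, at 3 of the 4 glycosylase genes and not at KYP. With a single list, 5 of the 9 genes had a peak in replicate 1 and 6 in replicate 2, against 55.6% and 56.2% of all protein-coding genes. The loci with peaks and those without are drawn side by side in the map of peaks.

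**Figure D1:**
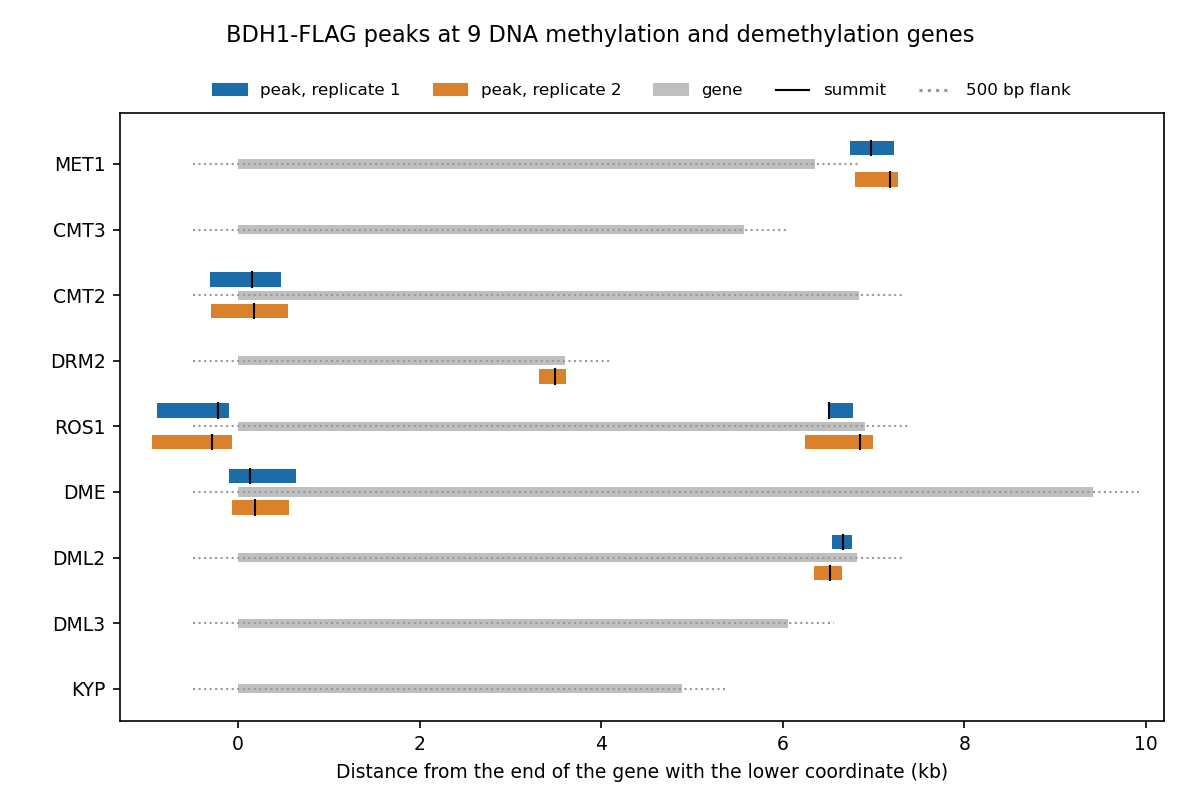
Position of every BDH1-FLAG peak at the 9 genes, in kb from the end of the gene with the lower coordinate. Grey bars are annotated genes, dotted lines the 500 bp flanks, coloured bars the peaks of each replicate and black ticks their summits. The peaks of CMT2, DRM2, DME and DML2 and the weaker peak of ROS1 sit at gene ends, the stronger peak of ROS1 and that of MET1 lie outside the gene, and CMT3, DML3 and KYP have none.

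Among the methyltransferase genes, CMT2 (AT4G19020) had the highest peak. It covered positions 10414116 to 10414906 of chromosome 4 in replicate 1 and 10414131 to 10414979 in replicate 2, in the coordinates of the lists, whose build is TAIR10 per the submitters' processing notes. Its fold enrichment was 2.72 in replicate 1 and 2.54 in replicate 2, with a −log10 q of 9.48 and 7.81. The summits lay 159 and 171 bp inside the lower end of CMT2, only 12 bp apart. CMT2 and its neighbour AT4G19010 are separated by 103 bp, and the peak bridged this gap, with 60.6% of its length in CMT2 and 26.4% in AT4G19010 in replicate 1, and 65.0% and 22.9% in replicate 2. Both summits fell in CMT2.

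MET1 (AT5G49160) entered the count through its flank. Its peak covered positions 19938860 to 19939345 of chromosome 5 in replicate 1 and 19938906 to 19939382 in replicate 2, starting 390 and 436 bp past the gene's higher end. The whole peak lay inside the neighbouring gene AT5G49170 in both lists, and its summits were 613 and 827 bp from MET1. The fold enrichment was 2.17 in replicate 1 and 2.05 in replicate 2, below the median of both lists. No part of MET1 itself was under a peak.

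DRM2 (AT5G14620) had a peak in replicate 2, from 4718415 to 4718723 on chromosome 5. It was enriched 2.33-fold with a −log10 q of 6.59. That is above the median of the list, and the summit lay 109 bp inside the higher end. In replicate 1 the closest peak was 3272 bp away, inside SK13 (AT5G14640), with a fold enrichment of 1.79. The replicates therefore disagreed at DRM2.

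At CMT3 (AT1G69770) the closest peak of replicate 1 was 1501 bp away and that of replicate 2 was 4463 bp away, on the lower side each time, with a fold enrichment of 1.79 and 1.89. These summits fell in no annotated gene. A closest peak farther away than that of CMT3 was found for 34.8% of protein-coding genes in replicate 1 and 17.3% in replicate 2. KYP (AT5G13960), the histone methyltransferase that works with CMT3, had its closest peak 604 bp away in replicate 1 and 621 bp in replicate 2. That peak had its summit in AT5G13950, with a fold enrichment of 2.42 and 2.38. KYP was thus just outside the limit of 500 bp, where MET1 at 390 and 436 bp was just inside.

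**Figure D2:**
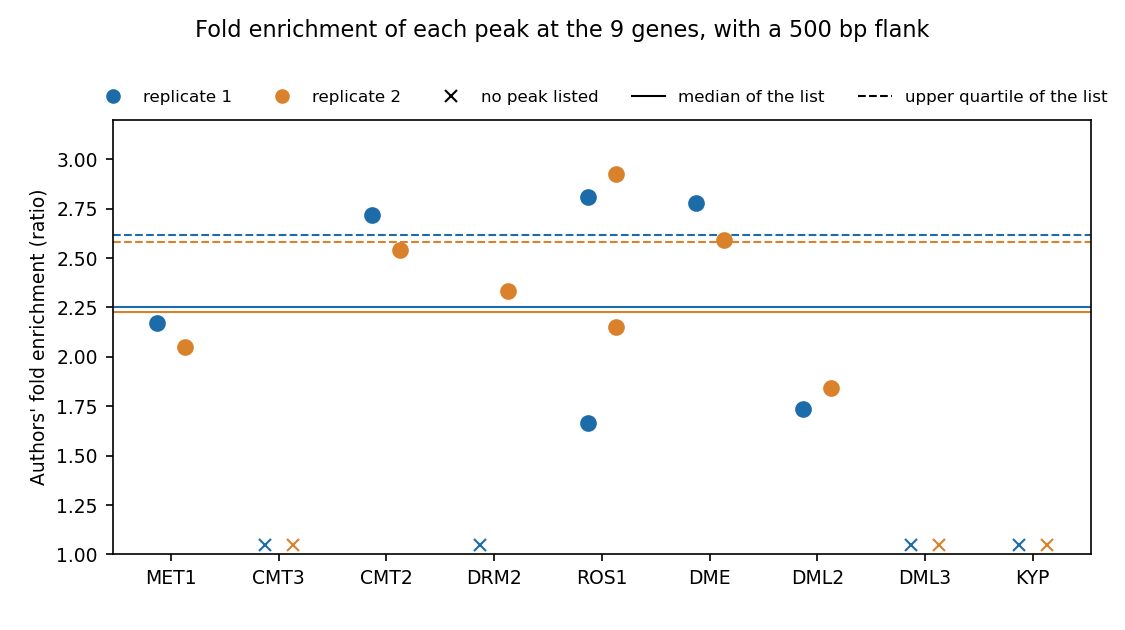
The authors' fold enrichment of each peak at the 9 genes in replicate 1 (blue) and replicate 2 (orange). Solid lines mark the median and dashed lines the upper quartile of each list, and crosses mark genes with no listed peak. The axis starts at a ratio of 1. The higher peak of ROS1, which lies outside the gene, and that of DME reach above the upper quartile in both lists, CMT2 in replicate 1 alone (2.72, against 2.54 in replicate 2), and DML2 lies below both medians.

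Among the glycosylase genes, ROS1 (AT2G36490) was the only one with separate peaks near both ends in both lists. The stronger peak covered positions 15307010 to 15307810 of chromosome 2 in replicate 1 and 15306961 to 15307839 in replicate 2. Its fold enrichment was 2.81 and 2.93 and its −log10 q 10.4 and 11.7, which gave it rank 2805 of replicate 1 and rank 1667 of replicate 2. This peak stopped 97 bp short of ROS1 in replicate 1 and 68 bp short in replicate 2. ROS1 and its neighbour AT2G36480 are 97 bp apart, and 99.9% and 96.6% of the peak lay in AT2G36480, with summits 222 and 291 bp from the lower end of ROS1. By position this peak belongs to AT2G36480, and it counts for ROS1 through the flank, as at MET1.

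The weaker ROS1 peak lay at the higher end. In replicate 1 it ran from 15314403 to 15314683 and was enriched 1.66-fold at a −log10 q of 2.12, and in replicate 2 it ran from 15314156 to 15314903 and was enriched 2.15-fold at 5.52. The summit lay within ROS1, 394 bp from the end for replicate 1 and 50 bp for replicate 2. In replicate 1 this was the weakest peak at any of the 9 genes, near the bottom of its list at percentile 2.501, while in replicate 2 it stood at percentile 43.0. Summits within 500 bp of each end in both lists were found at 5.61% of protein-coding genes longer than 1000 bp, and at ROS1 alone among the 9 genes.

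DME (AT5G04560), a close relative of ROS1 and the longest of the 9 genes with 9422 bp, carried a single peak at its lower end. It covered positions 1309000 to 1309733 of chromosome 5 in replicate 1 and 1309034 to 1309663 in replicate 2. The fold enrichment was 2.78 in replicate 1 and 2.59 in replicate 2, with a −log10 q of 11.5 and 9.32. The summits lay 129 and 186 bp inside DME. The peak reached no other annotated gene, and 86.5% and 89.7% of it lay in DME. It covered 6.74% of the gene in replicate 1 and 5.997% in replicate 2, and the rest of DME had no peak.

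DML2 (AT3G10010) had a weak peak at its higher end, wholly inside the gene. It ran from 3088275 to 3088495 on chromosome 3 in replicate 1 and from 3088084 to 3088385 in replicate 2. The enrichment was 1.74-fold and 1.84-fold, at a −log10 q of 2.81 and 3.36. The summits, 151 and 291 bp inside the gene, were 140 bp apart. DML3 (AT4G34060) had no peak, and the closest was 1375 bp away in replicate 1 and 1100 bp in replicate 2. That neighbouring peak lay at CCoAOMT1 (AT4G34050), a gene for a methyltransferase of lignin synthesis, with a fold enrichment of 2.51 in replicate 1 and 3.30 in replicate 2.

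Ordered by the percentile of the highest peak within its own list, where 100 is the highest fold enrichment, the 5 genes with a peak in both lists came in the same order in both. ROS1 stood first at percentile 83.1 in replicate 1 and 89.8 in replicate 2, a mean of 86.5 ± 4.75 (SD, n = 2). DME followed with 82.0 and 75.7, a mean of 78.8 ± 4.51, and CMT2 with 79.5 and 72.9, a mean of 76.2 ± 4.71. The values of DME and CMT2 overlapped, whereas those of ROS1 lay above both. The peak that puts ROS1 first lies outside the gene with its summit in AT2G36480, and the peak inside ROS1 stood at percentiles 2.501 and 43.0, below DME and CMT2 in both lists. MET1, whose peak also belongs to its neighbour by position, had 42.8 and 33.2, and DML2 had 5.01 and 13.7, so both stood apart from the other 3 and from each other by more than the spread between replicates. With 2 values a gene, no test of these differences was made.

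For the 5 genes the median fold enrichment of the highest peak was 2.72 in replicate 1 and 2.54 in replicate 2, against 2.48 and 2.45 for the 14297 protein-coding genes with a peak in both lists. The median percentile was 79.5 and 72.9, against 66.6 and 67.1 for all such genes. These medians leave out the 4 members without a peak in both lists, and they depended on the flank, as the percentiles without it were 42.3 and 57.9. The medians over all such genes were made with the flank only, so they are no background for these 2 percentiles. The summits of the highest peaks of the lists were a median of 69 bp apart at the 5 genes, against 75 bp over all such genes.

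The number of genes with a peak was also read by strength. At a −log10 q of at least 5, CMT2, ROS1 and DME kept a peak in both lists, 3 of 9 genes against 36.9% of all protein-coding genes. At 10, ROS1 was the only one, 1 of 9 against 11.8%, and the peak that passed lies in its flank. When the summit itself had to be within the gene or its flanks, 4 genes remained (CMT2, ROS1, DME and DML2), against 48.6% of all. With a summit inside the gene in both lists the count was also 4, against 42.0%, and with a summit within 500 bp of a gene end in both lists it was 4, against 43.3%. At ROS1 the inside summit was that of the weaker peak.

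Gene length was set beside these counts because longer protein-coding genes more often had a peak in both lists. The reason for that was not tested. Protein-coding genes were cut into 10 classes of equal size by span, and 8 of the 9 genes fell in the longest class and DRM2 in the class below it. In the longest class 5 of the 8 members had a peak in both lists, against 68.3% of the 2745 genes of that class. A peak in neither list was found for 3 of these 8, against 21.6% of the class. These counts over 8 genes are too small to set the members apart from genes of like length.

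**Figure D3:**
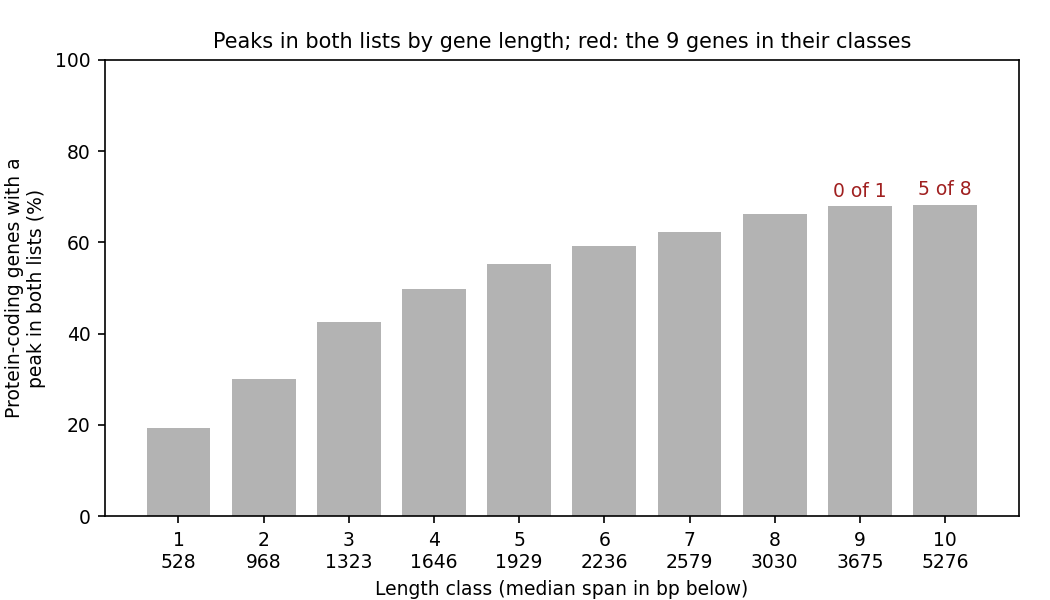
Percentage of protein-coding genes with a BDH1-FLAG peak in both lists, in 10 classes by gene length with the median span in bp under each class. Red labels give how many of the 9 genes in a class had a peak in both lists. The percentage goes up from 19.3 in the shortest class to 68.3 in the longest, which holds 8 of the 9 genes.

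At the genes with a peak inside the span (CMT2, DRM2, ROS1, DME and DML2), its summit was within 500 bp of a gene end. Over all 9 genes, within 500 bp of an end, peaks covered 13.4% of the bases in replicate 1 and 17.0% in replicate 2, against 17.9% and 18.4% over the longest class of protein-coding genes. Deeper inside, they covered 0.282% and 0.561%, against 2.59% and 2.47% over that class. No summit of either list lay deeper than 500 bp inside any of the 9 genes. Over the class, 374 summits of replicate 1 and 326 of replicate 2 did, spread over 2745 genes, so their absence in 9 genes is no contrast with it.

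The wider pathway was described from a list of 30 more genes, named from textbook knowledge. Of these, 16 had a peak in both lists (53.3%), 5 in a single list and 9 in neither, near the 52.1% of protein-coding genes of all lengths. Many of the 30 are long, and longer genes more often had a peak. In the longest class 5 of 12 had a peak in both lists, against 68.3% of the class. In the class below it 3 of 8 did, against 68.0%, and in the next class 5 of 5, against 66.1%. These counts are small, and no test was made. The highest percentiles were those of RDM1 (AT3G22680), a factor of RNA-directed DNA methylation, with 88.7 in replicate 1 and 94.1 in replicate 2. Its fold enrichment was 2.99 and 3.11, and the peak lay inside the gene with summits 686 and 705 bp from the higher end. DDM1 (AT5G66750), a nucleosome remodeller needed for methylation of heterochromatin, followed with percentiles of 85.6 and 93.4, but the summit of that peak lay in the neighbouring gene AT5G66760, 647 and 612 bp from DDM1. Weaker peaks lay near the lower end of DDM1, all with summits outside it. That of replicate 1, at percentile 58.6, had 284 bases in DDM1. Those of replicate 2, at percentiles 50.9 and 32.1, did not reach the gene. MBD6 (AT5G59380), a methyl-CpG-binding protein, had 87.6 and 86.2, with the summit of that peak 234 and 224 bp outside the gene. A weaker peak lay wholly inside MBD6 in both lists, at percentiles 52.2 and 72.2. Its summits were 231 and 318 bp from the lower end.

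The counts by role are set beside the 52.1% of all protein-coding genes with a peak in both lists and the 40.3% with none. These shares cover genes of all lengths, and the counts were not matched for length. In the longest class 68.3% had a peak in both lists and 21.6% none, and in the class below it 68.0% and 24.2%. Of the 7 genes listed under RNA-directed DNA methylation, 6 had a peak in both lists. Their percentiles ran in replicate 1 from 1.95 at SUVH2 to 88.7 at RDM1. The seventh, DRD1, had no peak (it was named after its values were seen). These 7 are a part of that pathway, and DRM2 is counted with the methyltransferase genes. The list put MBD5, MBD6, SUVH1, SUVH3 and MOM1 under readers of methylation, a label that was not checked for MOM1. Of these 5, 4 (all but MOM1) had a peak in both lists. Of the 5 other demethylation factors named in the table by symbol or synonym, 3 did, among them IDM1 (AT3G14980), a histone acetyltransferase that promotes demethylation at a part of the sites of ROS1, with a fold enrichment of 2.58 and 3.00. Peaks in both lists were found at 1 of 4 further methyltransferase genes, DRM1, where CMT1, DMT2 and MEE57 had none. At DRM1 the summits fell in the neighbour AT5G15390. Of 4 maintenance partners DDM1 had one, and VIM1, VIM2 and VIM3, which guide MET1 to hemimethylated DNA, had none. SUVH6, a relative of KYP, and IBM1, which removes H3K9 methylation from gene bodies, had none, and SUVH5 had a peak in replicate 2 alone. These groups are small, and none was tested. The other 2 of the 30 loci have neither a symbol nor a synonym in the table, and they were left out of the counts by role for that reason alone. AT3G48425 had a peak in both lists, which lay 488 and 494 bp outside the gene with its summit in AT3G48430. AT3G14890 had a peak in replicate 2 alone.

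**Figure D4:**
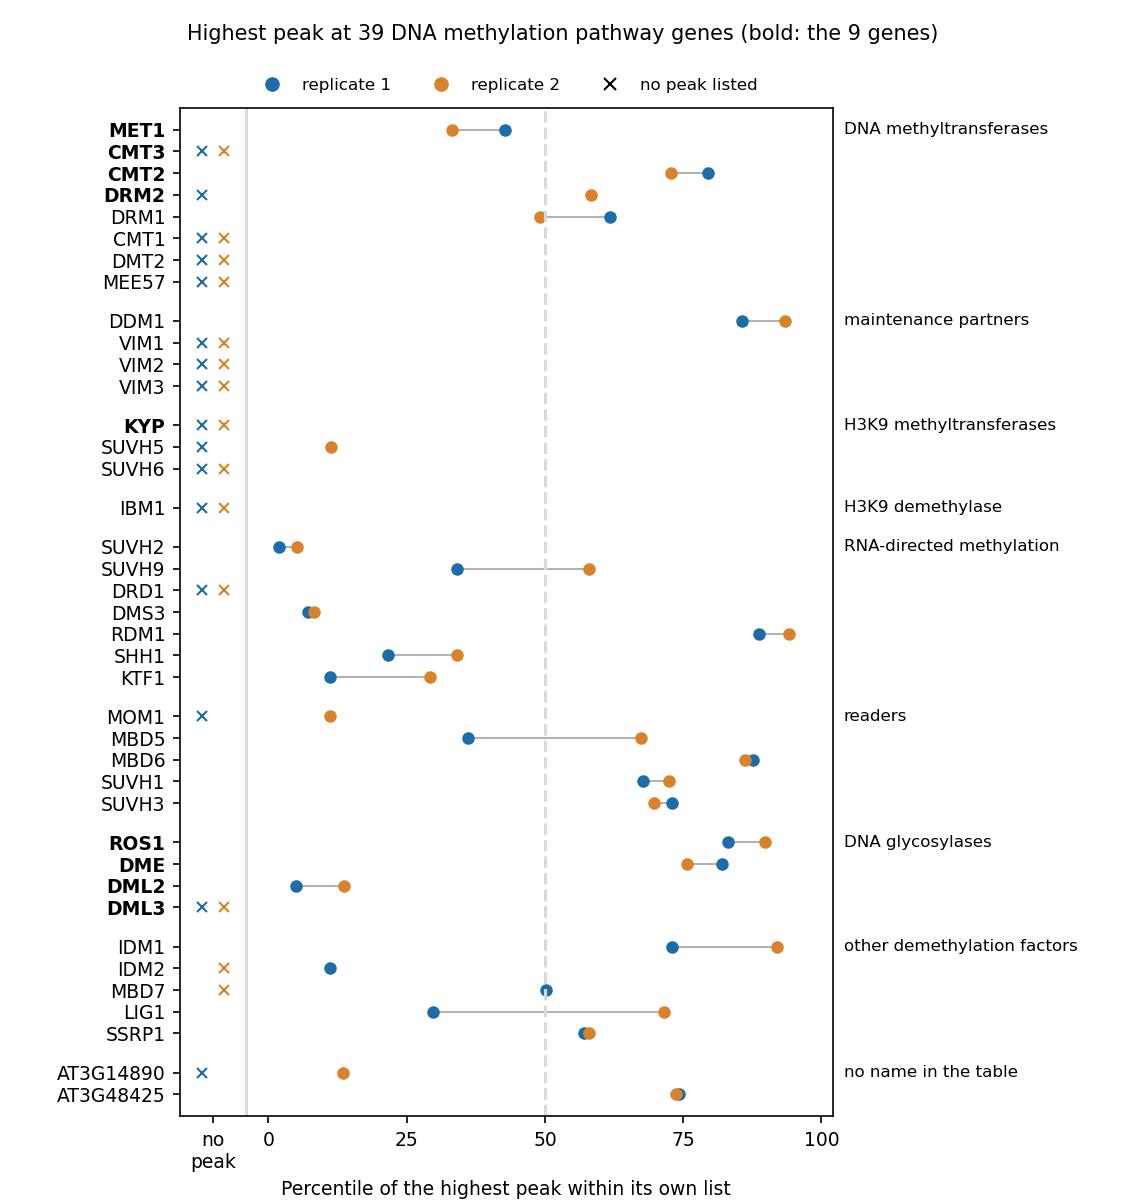
Percentile of the highest BDH1-FLAG peak within its own list at 39 genes of the pathway, grouped by role, in replicate 1 (blue) and replicate 2 (orange), where 100 is the highest fold enrichment. Crosses mark genes with no peak listed, and the 9 genes are in bold. Of the 9 genes, ROS1 (through a peak outside the gene), DME and CMT2 lie above percentile 72 in both lists, and CMT3, DML3 and KYP have no peak. Of the other genes, RDM1, DDM1, MBD6, IDM1 and AT3G48425 also lie above 72 in both lists. For DDM1, MBD6 and AT3G48425 the peak that puts them there lies outside the gene. VIM1, VIM2, VIM3, CMT1, DMT2, MEE57, SUVH6, IBM1 and DRD1 have no peak.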

How the data were processed

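The submitters' processing notes name Bowtie2 2.5.2, SAMtools, bedtools 2.31.1, MACS2 2.2.9.1 and the build TAIR10, without roles, parameters or a control library. The authors deposited a narrowPeak list per BDH1-FLAG sample, called separately. A peak in these deposited files has an interval, a summit, a fold enrichment (a ratio), the −log10 of its p-value and its q-value, and a score that was not used. Positions are 1-based.

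Gene spans and symbols came from the RefSeq table of TAIR10.1, whose coordinates are not printed. It was matched to the lists by moving gene ends in steps of 250 bp up to 10000 bp either way. In 10 of 10 combinations of chromosome and list, the share of summits within 250 bp of a gene end was highest at a shift of no more than 250 bp. These spans can differ from those of the TAIR10 annotation.

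A gene had a peak when a peak overlapped its span plus 500 bp flanks by 1 bp or more. Counting was tested on simulated peaks with known answers. Python 3.11.15 and pandas 2.3.3 were used. The 9 genes, the pathway list and the rules were chosen with earlier results of these data known. Named beyond the 9 were the 3 pathway genes with the highest mean percentile, those with no peak, up to 8, neighbours that hold a summit, and a few chosen after values were seen. Gene starts were replaced by gene ends, since no strand was at hand. The planned motif search was not run, as no genome sequence was used here.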

Additional observations from a re-analysis of the deposited data

How the results depend on the processing

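Among peaks whose −log10 q reached 5, the count of the 9 genes with a peak in both lists was 3, against 5 with all peaks, that with a summit inside the gene was 2, against 4, and that of the other pathway genes was 9, against 16. At 10 the counts for the 9 genes, for a summit inside the gene and for the other pathway genes were 1, 0 and 4. The share of all protein-coding genes with a peak in both lists was then 11.8%. The counts of the 9 genes with a summit in the window and near a gene end were 1 each. No share over all genes was made for summits at these cutoffs, so the falls in summit counts have no background. At 10 ROS1 alone of the 9 genes was left, so the medians of replicate 2 are its own values, 2.93 in fold enrichment and percentile 89.8. Without a flank the median fold enrichment of the highest peak was 2.23 in replicate 1 and 2.35 in replicate 2, at percentiles 42.3 and 57.9, since the peak at MET1 and the stronger peak at ROS1 no longer counted. With a flank of 1000 bp KYP entered, and the median was 2.57 in replicate 1, with percentiles of 71.1 and 67.4. A single list gave 5 to 6 genes with a peak, 4 to 5 with a summit in the window, inside the gene or near an end, and 18 to 19 other pathway genes. The other alternatives moved no count by over 1.5 times and no median by more than 1 SD, among them leaving MET1 out, which was chosen after seeing the data. No paired analysis was possible because a single group had lists.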
